A study of Mus musculus with 2 samples.

Results

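The cells described here are the T cells without CD8 transcripts of mouse hearts after pressure overload, 145 of the 9369 cell barcodes in the deposited matrix (1.55%, 95% interval 1.31 to 1.82%). They were chosen by measured values, the raw UMIs of marker genes (molecular barcodes that count transcripts once each). A member had at least 2 UMIs over Cd3e, Cd3d and Cd3g, the CD3 chains of the T cell receptor, and 0 UMIs of Cd8a and Cd8b1, the chains of the CD8 coreceptor. It also had at most 1 UMI over the NK cell receptor genes Ncr1, Klrb1c, Klre1 and Klra8, and none of Cd79a (B cells), Csf1r (macrophages), Pdgfra (fibroblasts) or Cdh5 (endothelium). The levels of these genes in the members are set by that choice and are not findings. A missing CD8 UMI is not a proof of a CD8-negative cell, since a transcript can be present and not captured.

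The study compared hearts of control mice with hearts of Nts KO mice (Nts encodes the precursor of the peptide neurotensin) at 7 days after TAC, surgery that narrows the aortic arch and overloads the left ventricle with pressure. Cells other than cardiomyocytes were released by dispase, collagenase II and elastase from 3 control and 4 Nts KO hearts, tagged with a hashtag antibody per mouse, sorted as viable single cells (calcein-AM positive, DAPI negative) and combined into a pool for a 10x 3′ version 3.1 kit. All mice had TAC and are given as 6 to 8 weeks old, and the pool has no unoperated heart. The genotype entry of the labels reads WT while the same labels describe a pool of control and KO mice, and which cells were deleted of Nts in the KO mice is not given in the sources used here. Cells were not assigned to mice here, so every value below is an average over an unknown mixture of control and KO cells, and the 2 genotypes were not compared. The whole pool is 1 gene expression library of 69993559 UMIs. Barcodes held between 2567 and 42567 UMIs (median 6663). There is no replicate library. The hashtag library was not analysed here. All intervals are 95% intervals for counting error only, and no significance test was made.

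T cells that lack CD8 are a mixed population. Most carry an α and β chain receptor with the CD4 coreceptor and act as helper cells, which drive other leukocytes through cytokines and contact signals such as CD40 ligand, or as regulatory cells, which are set by the transcription factor FOXP3 and restrain inflammation. A smaller class, the γδ T cells, has a receptor of γ and δ chains, usually without CD4 or CD8, settles in tissues and can release IL-17A quickly under the control of RORγt and IL-23. Innate lymphoid cells of type 2 have no rearranged receptor, depend on GATA3, and release IL-5, IL-13 and amphiregulin in answer to IL-33. In the pressure-overloaded heart, CD4 T cells are known to enter the myocardium and to take part in fibrosis and the decline of function, and regulatory T cells are known to limit them.

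The members held a small set with type 17 genes and a small set with type 2 genes, described below, and the promoters of 4 of these genes are shown so that letters read by ROR and GATA factors can be seen in them. The windows are the 250 bases before the RefSeq start (build GRCm38.p6), 5′ to 3′ on the gene's strand. Capitals mark the searched letters on either strand: AGGTCA, the half-site read by ROR factors, in Il17a (chr1:20730655-20730904, plus strand) and Il23r (chr6:67491856-67492105, minus strand), and AGATAA, a word of the GATA family, with T also allowed as its first letter and G as its last, in Il5 (chr11:53720544-53720793, plus strand) and Calca (chr7:114636358-114636607, minus strand).
Il17a: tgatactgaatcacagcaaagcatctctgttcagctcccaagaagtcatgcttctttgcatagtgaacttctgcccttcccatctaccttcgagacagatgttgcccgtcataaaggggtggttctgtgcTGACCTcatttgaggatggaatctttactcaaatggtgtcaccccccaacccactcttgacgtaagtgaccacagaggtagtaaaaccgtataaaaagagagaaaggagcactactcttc
Il23r: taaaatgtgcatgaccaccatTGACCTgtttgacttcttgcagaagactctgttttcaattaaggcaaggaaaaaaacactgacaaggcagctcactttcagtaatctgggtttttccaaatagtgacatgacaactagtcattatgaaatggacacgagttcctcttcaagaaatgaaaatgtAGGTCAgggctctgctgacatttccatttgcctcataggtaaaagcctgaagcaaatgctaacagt
Il5: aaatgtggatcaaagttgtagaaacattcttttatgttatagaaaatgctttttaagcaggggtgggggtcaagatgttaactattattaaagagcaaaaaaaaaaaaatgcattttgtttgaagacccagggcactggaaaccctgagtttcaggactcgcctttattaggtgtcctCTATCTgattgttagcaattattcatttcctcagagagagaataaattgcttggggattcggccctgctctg
Calca: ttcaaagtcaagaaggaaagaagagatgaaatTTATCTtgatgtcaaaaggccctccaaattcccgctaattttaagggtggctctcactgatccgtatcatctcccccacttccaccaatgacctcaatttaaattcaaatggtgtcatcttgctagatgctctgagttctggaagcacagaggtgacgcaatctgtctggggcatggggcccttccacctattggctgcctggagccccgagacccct
The match in Il17a lies 120 bases before the start, those in Il23r 229 and 66 bases before it, the match in Il5 72 bases and the match in Calca 218 bases. AGGTCA occurred in 14.0% of 32851 windows of that length and in 5 of the 21 windows of type 17 and γδ list genes. These 21 windows belong to 14 genes with an entry (of 25 in the list), 5 of them with a match. The GATA words occurred in 26.5% of all windows and in 6 of the 14 windows of type 2 list genes (6 of the 12 genes). The Calca window also holds an AGGTCA match 130 bases before the start, which is not in capitals, and the GATA words have 0 matches in the Il17a and Il23r windows. The 4 promoters shown were picked from those with a match, which describes these letters and not a bound site.

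Most members held T cell receptor constant transcripts, which the choice did not use, and 21 barcodes carried much RNA of another lineage. Of the 6 markers given with the choice (Cd3e, Cd3g, Trac, Cd4, Il7r, Tcf7), at least 3 were detected in 125 of 145 members and all 6 in 10, but Cd3e and Cd3g are genes of the choice itself. Trac, the constant part of the receptor α chain, was detected in 64.1% of members (55.8 to 71.9%), in 83.3% of CD8 T cells (the same choice of cells but with a CD8 UMI, n = 180) and in 1.25% of fibroblasts, which should lack it. Il7r, the receptor for the survival cytokine IL-7, was found in 65.5%, and Tcf7, a transcription factor of naive and memory T cells, in 51.7%. The median member had 3491 UMIs, the median CD8 T cell 3464.5, the median NK cell (n = 74) 3361.5, the median macrophage (n = 1939) 5914 and the median fibroblast (n = 2718) 8134.5. The background shares of fibroblasts and macrophages therefore come from deeper barcodes.

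In 19 members, UMIs of a fibroblast list (Dcn, Col1a1, Col3a1 and others) made up 1.15 to 10.9% of all UMIs, with a median of 7.20%, near the 8.32% of the fibroblasts themselves. Another 2 members reached 1% with macrophage or neutrophil genes only, 1 of them with 16.9% neutrophil-list UMIs. No UMI of a T cell receptor α or β constant gene (Trac, Trbc1, Trbc2) was present in 13 of these 21 barcodes, 12 of them rich in fibroblast RNA. All other 124 members had such a UMI, with at most 0.758% fibroblast-list UMIs. The 21 barcodes were deeper (median 6645 against 3258.5 UMIs), and 6 of them were among the 7 members that a doublet caller marked. Whether they are doublets or other cells that took up T cell RNA was not tested. Leading counts are given with and without them, and "the 124 members" below means the members without them. That cut was chosen after seeing the data. In the 124 members, the summed fibroblast list stood at 1622 CPM (counts per 1e6 UMIs of the cells) beside 1561 CPM in 163 CD8 T cells after the same cut.

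**Figure D1:**
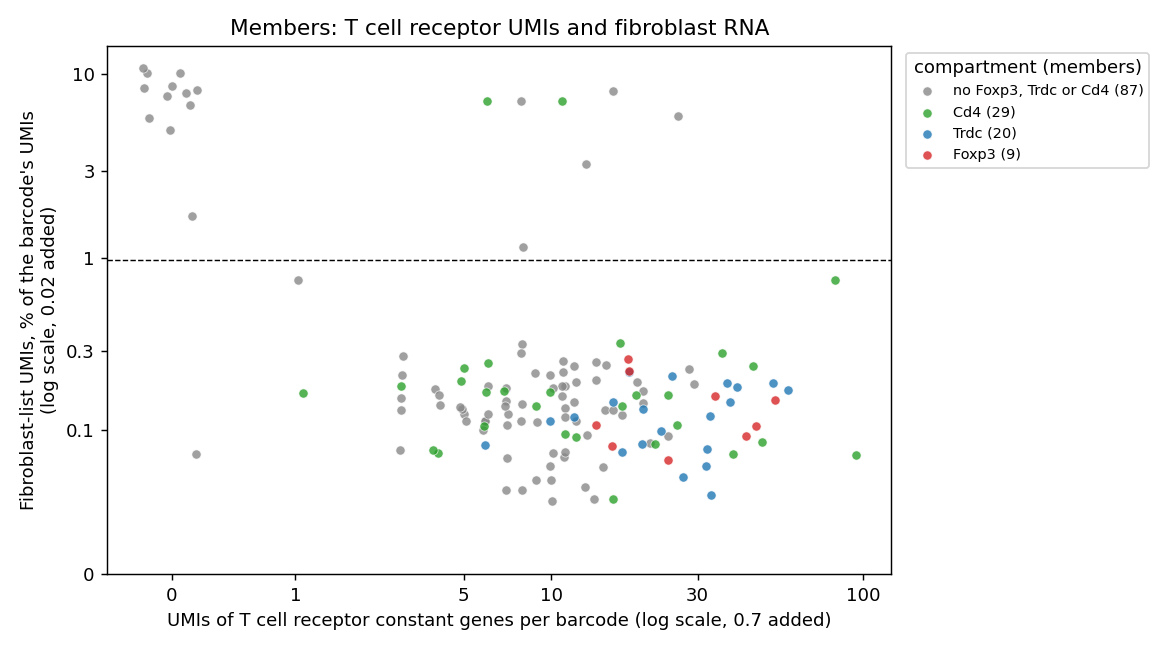
Each point is a member, with its UMIs of T cell receptor constant genes on the x axis and the share of fibroblast-list UMIs, in percent, on the y axis (both log scales), coloured by compartment. The 19 members above the dashed line at 1% include 12 without a receptor UMI, at the upper left, and every member in red or blue lies below the line.

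At the edges of the choice, the 9 members with exactly 2 CD3 UMIs held 4 barcodes with a receptor UMI and 5 rich in RNA of another lineage. Just outside, 54 barcodes had 1 CD3 UMI and met all else, 5 with a receptor UMI and 49 rich in other RNA. On the CD8 side, 16 barcodes were outside by 1 CD8 UMI and 11 by 2, all with a receptor UMI. The median member had 10 CD3 UMIs (2 to 59), and 111 had at least 6. The median CD8 T cell had 5 CD8 UMIs (1 to 33).

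The members fell into 4 compartments by the first of Foxp3, Trdc and Cd4 with at least 1 UMI, and most had none of the 3. Foxp3 was present in 9 members (6.21%, 2.88 to 11.5%), then Trdc, the δ chain constant gene, in 20 (13.8%, 8.63 to 20.5%), then Cd4 in 29 (20%, 13.8 to 27.4%). The other 87 (60.0%, 51.5 to 68.0%) had none of these transcripts, 69 of them among the 124. In the 124 members the compartments held 9, 19, 27 and 69 cells.

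Cd4 transcripts were sparse. In all compartments, 34 members had a Cd4 UMI (23.4%, 16.8 to 31.2%), against 2.22% of CD8 T cells, 0.368% of fibroblasts and 1.91% of macrophages. With every barcode thinned at random to 1500 UMIs the share in members was 6.90%, so the size of the Cd4 compartment moves with depth. Foxp3 was detected in 0.556% of CD8 T cells, 0.413% of macrophages and 0.0736% of fibroblasts, and thinning left 0.690% of members. Trdc hardly depended on depth, with 14.5% of members before and 13.8% after thinning. It was found in 2.22% of CD8 T cells, 0.110% of fibroblasts and 20.3% of NK cells (5.41% after thinning).

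**Figure D2:**
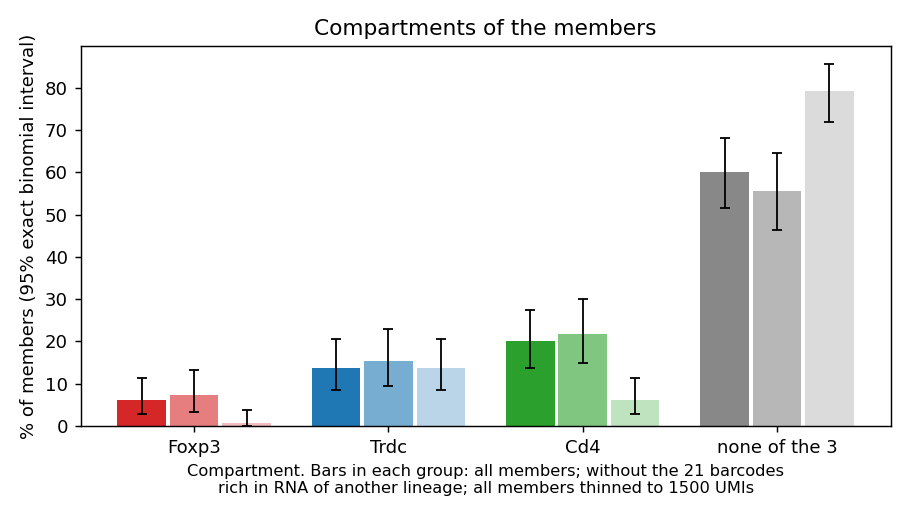
Bars give the share of members in each compartment in percent with 95% exact binomial intervals, for all 145 members, for the 124 members, and for all members thinned to 1500 UMIs. Thinning moved the Foxp3 share from 6.21 to 0.690% and left the Trdc share at 13.8%.

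The 9 Foxp3 members carried other regulatory genes as well. Ctla4, an inhibitory receptor that regulatory T cells use to hold back costimulation, had 7, 7, 7, 8, 11, 11, 14, 16 and 17 UMIs in them. Ikzf2, which encodes the transcription factor Helios, had 2 to 9 UMIs, and the costimulatory receptors Tnfrsf4 (OX40, 1 to 17 UMIs) and Tnfrsf18 (GITR, 1 to 8 UMIs) were also present in every Foxp3 member. Foxp3 itself gave only 1 to 3 UMIs a cell. All 9 had Trac, 3 had Cd4 and 4 had Il2ra, the IL-2 receptor α chain.

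In CPM of summed UMIs, Ctla4 stood at 2064 in the Foxp3 members and at 122.5 in the other 115 of the 124 members, a ratio of 16.9 (12 to 23.9). Ikzf2 was 21.3-fold higher (12.9 to 36.0), Izumo1r (folate receptor 4) 13.4-fold (6.03 to 30.7) and Tnfrsf4 7.34-fold (4.86 to 11.0). Of the 17 regulatory list genes, 10 were measured (at least 20 UMIs over both sides), and 8 were at least 2-fold higher and 0 lower, with a median log2 ratio of 1.99 against -0.03 over all 3873 genes measured. Over all genes, 10.2% were higher and 16.2% lower by 2-fold. Among all 145 members, 10 of the 10 measured were higher, beside 12.2% of all genes higher and 13.8% lower. The list was known to mark Foxp3 cells, and a gene could pass the minimum of 20 UMIs through these cells. The count therefore describes the compartment and is not independent evidence.

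Areg, which encodes the tissue repair factor amphiregulin, was found in 7 of the 9 Foxp3 members, with 1, 1, 1, 2, 9, 12 and 16 UMIs. Its level was 884.7 CPM, against 278.4 CPM in the other 115 (3.18-fold higher, 2.18 to 4.54). The 9 cells were not alike in Ccr7, the chemokine receptor that guides T cells to lymph nodes, since 26 of its 44 UMIs came from 1 cell.

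In summed UMIs, the Foxp3 members were low in heat shock and immediate early genes. The 2 cycling Foxp3 members, of 9449 and 10920 UMIs, held much of the 47472 UMIs of the 9, and counts per cell are not given for these genes. Hspa1b, a heat shock chaperone gene, stood at 189.6 CPM against 3134 CPM in the other 115 members (16.5-fold lower, 8.68 to 36.2), Hspa1a was 8.51-fold lower (5.60 to 13.6) and Dnajb1 4.41-fold lower (2.77 to 7.48). Of the 18 immediate early and dissociation list genes, 0 were higher and 9 lower by 2-fold, beside 16.2% of all genes lower. Klf2, a transcription factor that keeps T cells in circulation, was 4.69-fold lower (3.34 to 6.80). The interferon-inducible gene Ifi27l2a was 5.65-fold higher (4.71 to 6.76). Cxcr6, a receptor of tissue-resident T cells, was found in 1 of the 9, and Ccl5, a chemokine of effector cells, was 15.8-fold lower (8.30 to 34.6). A Foxp3 member held 10 Trdc UMIs beside 5 Trac UMIs.

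The 20 Trdc members carried γ chain genes beside the gene that chose them, and little Trac. Trgc1, a constant gene of the γ chain, was found in 17, and 11 had Trgc2 and 10 Trgc4. Trac was found in only 4, with 1 UMI each. Without the barcode rich in macrophage RNA, Trac was at 46.15 CPM against 944.4 CPM in the other 105 members (20.5-fold lower, 7.93 to 75.5), and Cd28, a costimulatory receptor of αβ T cells, was 12.7-fold lower (4.89 to 47.0). Cd5, which tunes receptor signalling, was 7.40-fold lower (3.11 to 23.1). β chain constant transcripts (Trbc1, Trbc2) were nonetheless present in all 20.

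Of the 25 type 17 and γδ list genes, 16 were measured and 15 were higher in the 19 Trdc members, 0 lower, with a median log2 ratio of 2.86 against -0.08 over all genes. Over all genes 6.15% were higher and 12.1% lower. For all members 16 of 17 were higher, beside 6.42% of genes higher and 15.1% lower. The list holds Trdc and the γ chain genes, so part of that count follows from the choice of cells. Scart1, a scavenger receptor of γδ T cells, had 71 UMIs in the 19 cells and 0 in the other 105, at least 112-fold higher. Cxcr6 stood at 1338 against 353.9 CPM (3.78-fold higher, 2.94 to 4.86) and Pdcd1, the inhibitory receptor PD-1, at 473.1 against 75.65 CPM (6.25-fold higher, 3.83 to 10.3). Il7r was detected in 18 of the 19.

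Scart1 divided the Trdc members further. The 13 with Scart1 (2 to 11 UMIs) and the 7 without differed in the receptor and effector genes given here, as counts of cells. Trdv4, a δ chain variable segment, was found in 10 of 13 against 0 of 7, Blk, a Src family kinase of γδ T cells, in 12 against 2, and Pdcd1 in 11 against 2. Cxcr6 was found in all 13 and in 4 of 7, and Il23r, the IL-23 receptor, in 7 and 2. The cells without Scart1 held the cytotoxic genes: Nkg7, a granule protein gene, was in 5 of 7 against 0 of 13, Klrd1 (CD94) in 4 against 1, and Ccl5 in 5 against 1, with 11 to 98 UMIs in the 5. Ifng, the type 1 cytokine gene, had 3, 10 and 63 UMIs in 3 of the 7 and none in the 13. The 7 without Scart1 had 1, 2, 2, 4, 7, 9 and 12 Trdc UMIs, against 6 to 23 in the 13. All 4 Trdc members with Trac and the 2 with Cd4 (2 and 4 UMIs) were among the 7. Whether all 7 are γδ T cells was not tested. The split was made after seeing the values and has no test.

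Il17a was detected in 7 members. It had 1, 6, 11, 12 and 48 UMIs in 5 Trdc members and 1 and 53 UMIs in 2 members with none of the 3 compartment genes. The cell with 53 UMIs held 12 γ constant UMIs, 7 Trac UMIs and 27 Cxcr6 UMIs. All 7 had Cxcr6, S100a4 and Icos, and 0 had Ccr7, Lef1 or Ifng. Il17a was found in 4.83% of members (1.96 to 9.69%), in 0 of 180 CD8 T cells, which allows a share of cells with a UMI of up to 1.67% (3 counts of the total), and in 0.0736% of fibroblasts. Of the other type 17 cytokines, Il17f and Il22 had 0 UMIs in the members.

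The 29 Cd4 members had α chain and helper genes, and some were cycling. In the 27 without other RNA, Trac was found in 24 (1201 CPM, 1017 to 1410) and Cd40lg, the helper signal CD40 ligand, in 12 (216.3 CPM, 143 to 315). Trdc and Foxp3 were at 0 in them by the order of the choice, and Il17a had 0 UMIs. Gata3, the type 2 regulator, stood at 336 CPM, and Tcf7 was found in 16 and Lef1, a partner of TCF1 in naive cells, in 18. Ccr7 was found in 11 of the 27 and Cxcr6 in 12. The 4 cycling Cd4 members, of 8588, 10253, 13587 and 16742 UMIs, held much of the 124845 UMIs of the 27. The CPM values of this compartment therefore lean on these 4 cells.

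The 69 members with none of the 3 genes held T cell receptor transcripts. All 69 had an α or β constant UMI, and 50 had Trac (690.6 CPM, 589 to 805). Cd40lg was found in 22 of them at 164.2 CPM (117 to 225), an interval that overlaps that of the Cd4 members. In CD8 T cells Cd40lg was found in 2 of 180. A γ constant UMI was found in 14 of the 69, Zbtb16, the innate-like T cell factor PLZF, in 6 and the invariant NKT cell joining segment Traj18 in 1. Cxcr6 was found in 28 and Ccr7 in 29. Depth in this compartment (median 3151 UMIs) was close to that of the Cd4 members (3176).

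A set of 9 members had type 2 genes. These were the members of the 124 with at least 2 of Il1rl1, Il5, Il13, Calca, Hs3st1 and Il17rb, chosen after their values were seen, so their levels are a description. Of the 9, 8 lay among the members with none of the 3 genes and 1 among the Cd4 members. Gata3 had 2 to 9 UMIs and Rora, a nuclear receptor needed by type 2 innate lymphoid cells, 1 to 12 UMIs in every cell. Il5, the eosinophil growth factor, was found in 7 members in all, with 1, 1, 1, 1, 1, 2 and 5 UMIs, and all 7 were in this set. Il13 was found in 1 cell with 7 UMIs. Calca, the calcitonin gene-related peptide precursor, had 1, 2, 5 and 15 UMIs in 4 cells, and Hs3st1, a heparan sulfate sulfotransferase, 2 to 13 UMIs in 6.

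The CD3 sums of the 9 were 2, 2, 2, 4, 5, 7, 8, 8 and 34 UMIs, so 3 of them met the choice with the fewest UMIs allowed. All 9 had α or β constant UMIs (2 to 14), but Trac itself was at 0 in 6 and had 2, 4 and 11 UMIs in the other 3. Constant genes of the γ chain had 1, 1, 2, 2 and 2 UMIs in barcodes of the set, all of them with Trac at 0. Tcf7, Lef1, Ccr7 and Ifng had 0 UMIs in the set. Klf2 was found in 3 of the 9, against 56 of all 69 members with none of the 3 genes. Csf2, the cytokine GM-CSF, had 64, 16 and 2 UMIs in 3 of the 9, so that 1 cell held 67.4% of the members' 95 Csf2 UMIs. Areg had 60 UMIs in 1 cell, 34.9% of the members' 172. Whether these barcodes are innate lymphoid cells with some CD3 RNA or type 2 helper cells was not tested.

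**Figure D3:**
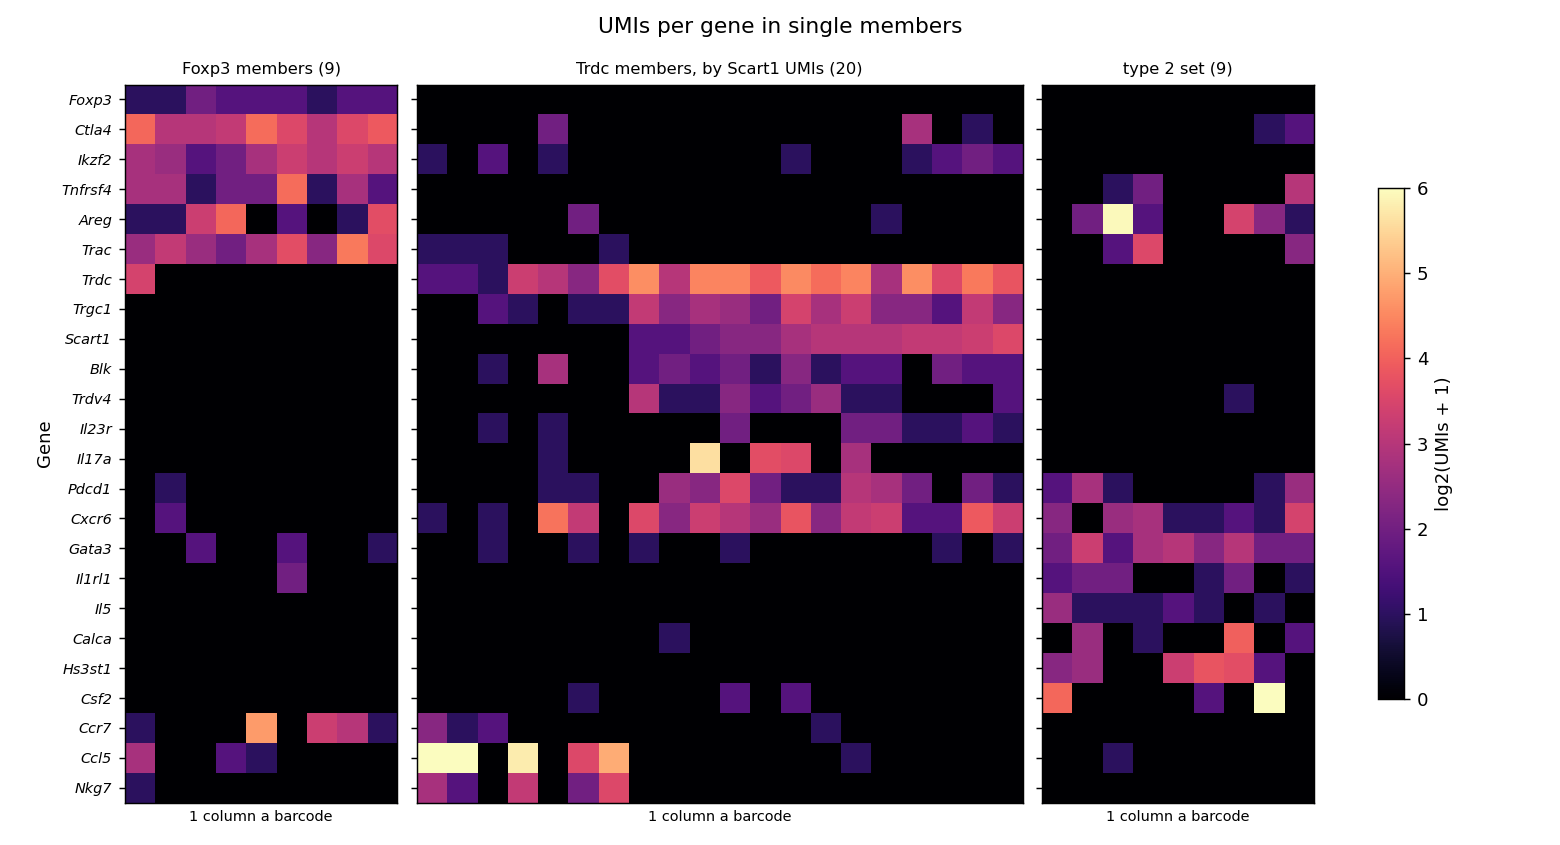
Colour gives log2(UMIs + 1) of each gene (y axis) in each barcode (1 column each) of the Foxp3 members (9), the Trdc members (20, ordered by Scart1 UMIs) and the type 2 set (9). Ctla4 and Ikzf2 fill all 9 Foxp3 columns, Scart1, Blk and Trdv4 stand at the right of the Trdc block where Ccl5 and Nkg7 are nearly absent, and Gata3 fills all 9 columns of the type 2 set.

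**Figure D4:**
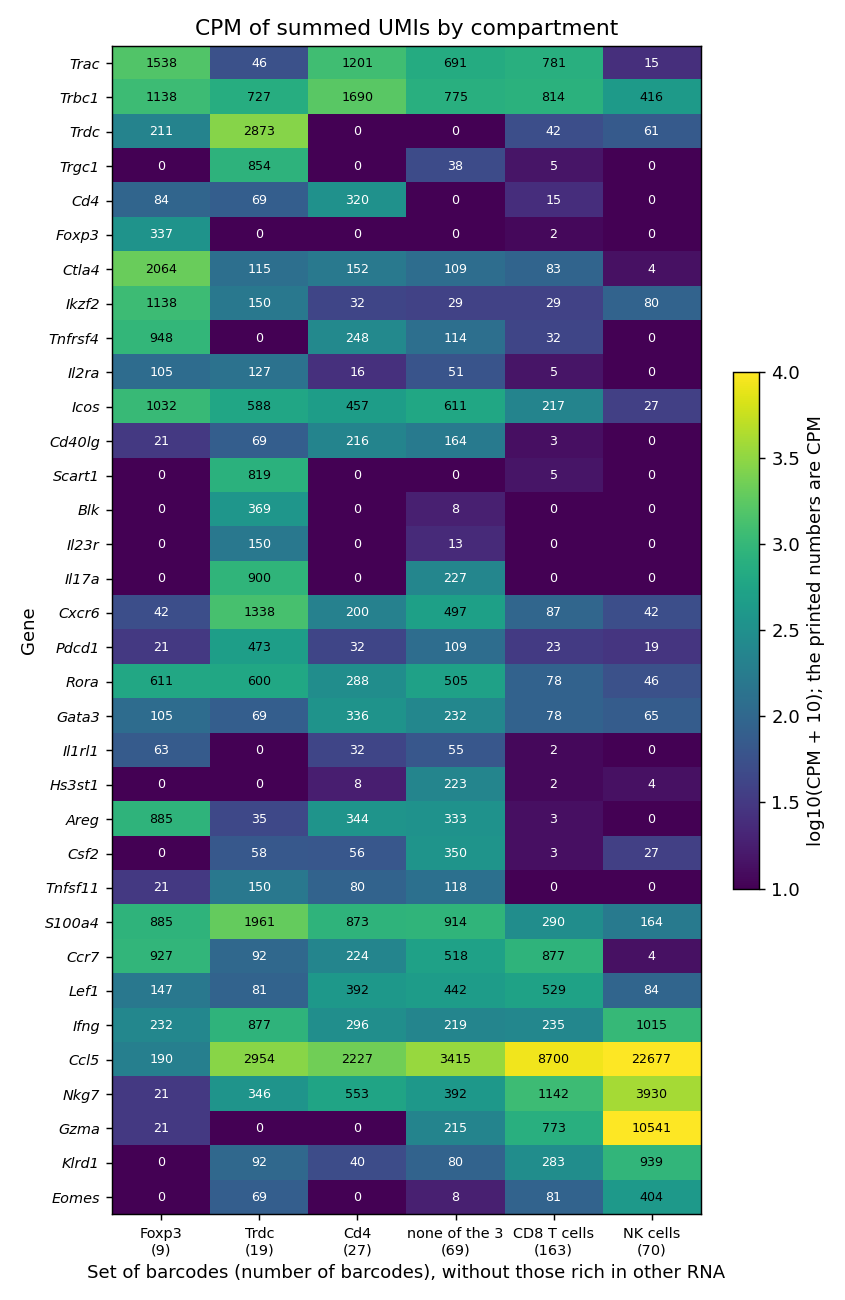
Printed numbers are CPM of summed UMIs for each gene (y axis) in the 4 compartments of the 124 members, in 163 CD8 T cells and in 70 NK cells (x axis), and colour is log10(CPM + 10). Il17a and Scart1 are highest in the Trdc column (900 and 819 CPM), Ctla4 in the Foxp3 column (2064 CPM), and Ccl5 and Gzma in the NK column.

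Residency and recirculation genes lay mostly in separate members. Among the 124 members, Cxcr6 was detected in 57 and Ccr7 in 49, and both were detected in 7. Cxcr6 and Lef1 (55 members) shared 10. In contrast, 54 of the 57 members with Cxcr6 also had S100a4, a calcium-binding protein gene of activated and memory cells (74 members). Tnfsf11, the cytokine RANKL, was found in 26, and 23 of these had Cxcr6. In the 163 CD8 T cells the balance was the other way, with Cxcr6 in 29, Ccr7 in 107 and both in 11. These are counts of cells from 1 library, given as a description.

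Cycling members were few and spread over all compartments. At least 2 of 20 cell cycle genes were detected in 38 of 145 members (26.2%, 19.3 to 34.2%), in 27.8% of CD8 T cells and in 35.1% of NK cells, and after thinning in 10.3, 11.1 and 18.9%. Mki67, a marker of proliferation, was found in 10 members (6.90%, 3.36 to 12.3%), in 5.56% of CD8 T cells and in 3.09% of fibroblasts. A set of 11 members with at least 5 of the genes (7.59%, 3.85 to 13.2%) held 87.9% of all cell cycle list UMIs in the members, and the like share was 4.44% in CD8 T cells (1.94 to 8.57%) and 5.41% in NK cells (1.49 to 13.3%). After thinning the share with at least 5 genes was 5.52% in members, 3.89% in CD8 T cells and 1.35% in NK cells, so the order of NK cells and members depends on the number of genes asked for.

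Of these 11, 4 were Cd4 members, 2 Foxp3, 1 Trdc and 4 had none of the 3 genes. The 4 Cd4 cells had 8588 to 16742 UMIs and 15 to 20 of the cell cycle genes, and the deepest held 24 UMIs of Top2a, the topoisomerase of dividing cells. None of the 11 was marked as a doublet or was rich in other RNA, and all 11 had Trac. The 2 cycling Foxp3 members had 14 and 15 of the genes.

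Against CD8 T cells, most measured type 17, type 2, regulatory and activation genes were higher in the members, and most cytotoxic ones were lower. For the type 17, type 2 and regulatory lists, most measured genes passed the minimum only through the members. Their direction is therefore fixed in part by the filter and is a description. Of 7246 genes measured, 818 (11.3%) were at least 2-fold higher in the members and 297 (4.1%) at least 2-fold lower. Without barcodes rich in other RNA on both sides (124 against 163), 465 of 6189 were higher (7.51%) and 235 lower (3.8%). Of those called over all cells, 4 of the 15 genes with the largest ratios were higher in fibroblasts than in the 124 members. The counts below are those of the 124 members unless said.

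Of the 25 type 17 and γδ genes, 16 were measured and called higher, but only 4 of them had 20 UMIs in CD8 T cells alone. The other 12 passed the minimum through the members, so this count is fixed in part by the filter and is a description. Il17a stood at 265.9 CPM with 0 UMIs in CD8 T cells (at least 54.8-fold higher), with 40.2% of its UMIs in 1 cell. Ltb4r1, a leukotriene B4 receptor gene, had 71 UMIs against 1 (88.4-fold, 15.4 to 3540), and Trgc2 43 UMIs against 1 (53.5-fold, 9.11 to 2163). Of the 12 type 2 genes 4 were measured, 1 of them with 20 UMIs in CD8 T cells alone. Hs3st1 was higher (67.2-fold, 11.6 to 2704), as was Ccr4, a chemokine receptor of type 2 helper and regulatory cells (9.96-fold, 3.53 to 38.8). The 10 measured of 17 regulatory genes were called higher, 3 of them with 20 UMIs in CD8 T cells alone. Areg stood at 336.4 against 3.24 CPM (104-fold higher, 28.3 to 866) and Il2ra at 60.43 against 4.85 CPM (12.5-fold, 3.87 to 63.8). The intervals are wide because the CD8 side rests on 1 to 4 UMIs. Neither Areg nor Il2ra was confined to Foxp3 members. Without barcodes rich in other RNA, 25 members had Il2ra, of which 4 had Foxp3, 10 had Trdc and 20 had Cxcr6. A cell can be in more than 1 of these counts. Areg was found in 17 members, of which 7 had Foxp3. A place in the regulatory list therefore does not mark these cells as regulatory T cells.

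Of the 17 measured memory, activation and residency genes, 11 were higher and 0 lower. Cd40lg stood at 147 CPM in members and 3.24 CPM in CD8 T cells (45.4-fold, 12.1 to 382) and was found in 26.9% of all members against 1.11% of all CD8 T cells. Tnfrsf4 was 6.41-fold higher (3.95 to 10.9) and Cxcr6 6.02-fold higher (4.47 to 8.22). Ccr2, the receptor that guides cells to inflamed tissue, was 5.31-fold higher (3.63 to 7.96), and Pdcd1 6.40-fold (3.58 to 12.3). Tnfsf11 was detected in 19.3% of all members and in 0 of 180 CD8 T cells. Of the 15 measured interferon response genes, 2 were higher and 1 lower. Of these 15, 10 had 20 UMIs in CD8 T cells alone, and 0 of the 10 were higher. Oasl2 was 3.53-fold higher (1.33 to 10.9), Isg20 2.40-fold higher (1.22 to 4.95) and Ifit3 2.41-fold lower (0.916 to 7.41, an interval that includes no difference). Ifng stood at 267.8 CPM in all members and at 198.3 CPM in all CD8 T cells, but 35.8% of its 176 UMIs in members came from 1 cell, and it was found in 13.1% of members against 20% of CD8 T cells.

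Of the 15 measured cytotoxic genes, 11 were lower and 0 higher, with a median log2 ratio of -1.50. Of these 15, 9 had 20 UMIs in the members alone, and 6 of the 9 were lower. Gzma, a granzyme, was 7.38-fold lower (5.54 to 10.0), Gzmm 7.83-fold lower (2.83 to 30.2) and Eomes, a transcription factor of cytotoxic cells, 5.02-fold lower (2.36 to 12.3). Nkg7 was detected in 22.8% of all members and in 82.2% of all CD8 T cells. Ccl5 stood at 2727 against 8700 CPM (3.19-fold lower, 3.00 to 3.39). It was found in 40 of the 124 members, and 1 of these held 271 UMIs. Fibroblasts showed a Ccl5 UMI in 16% of barcodes against 31.0% of all members, and in 3.38% against 23.4% at 1500 UMIs each. Whether the fibroblast UMIs are their own transcripts or background was not tested.

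Naive and recirculating genes were lower in part, with 3 of 15 lower, 1 higher and a median log2 ratio of -0.64. Ccr7 stood at 408.9 against 876.8 CPM (2.14-fold lower, 1.82 to 2.53). The T cell receptor complex list, without the 3 CD3 genes of the choice, did not differ by 2-fold in any of its 15 measured genes in all members, with a median log2 ratio of 0.01. Of the 19 cell cycle genes, 7 were higher, Top2a by 3.11-fold (2.04 to 4.85), but 11 cells carried most of these UMIs. Only 13 of the 19 had 20 UMIs in CD8 T cells alone, and 3 of these 13 were higher, so that count is fixed in part by the filter. In the immediate early list, Atf3, a stress-induced transcription factor, was higher (4.26-fold, 2.95 to 6.29). Egr1 turned with the choice of barcodes, from 2.92-fold higher (2.47 to 3.46) over all cells to a log2 ratio of -0.81 without those rich in other RNA.

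Genes among the 15 largest ratios on each side also set the members apart from CD8 T cells. Of those given here, Tmem176a and Tmem176b are list genes, and Tmem176b is already in the type 17 and γδ count above. Tmem176a and Tmem176b, which encode membrane proteins abundant in RORγt lymphocytes and myeloid cells, stood at 306.2 and 429 CPM in the 124 members, against 9.71 and 17.8 CPM in CD8 T cells (31.5-fold, 14.2 to 87.3, and 24.1-fold, 13.2 to 49.0). Both were spread over the cells, with UMIs in 39 and 41 members. Serpinb1a, a protease inhibitor gene of type 17 cells, was found in 25 members and 3 CD8 T cells (30.8-fold higher, 11.7 to 115). Dct had a ratio of 72.2, but 98.3% of its UMIs came from 1 cell. On the other side, Ly6c2, a surface protein of memory CD8 T cells and monocytes, stood at 173.2 against 799.2 CPM (4.61-fold lower, 3.66 to 5.87), and Crtam, an adhesion receptor of cytotoxic T cells, was 13.7-fold lower (3.50 to 117).

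**Figure D5:**
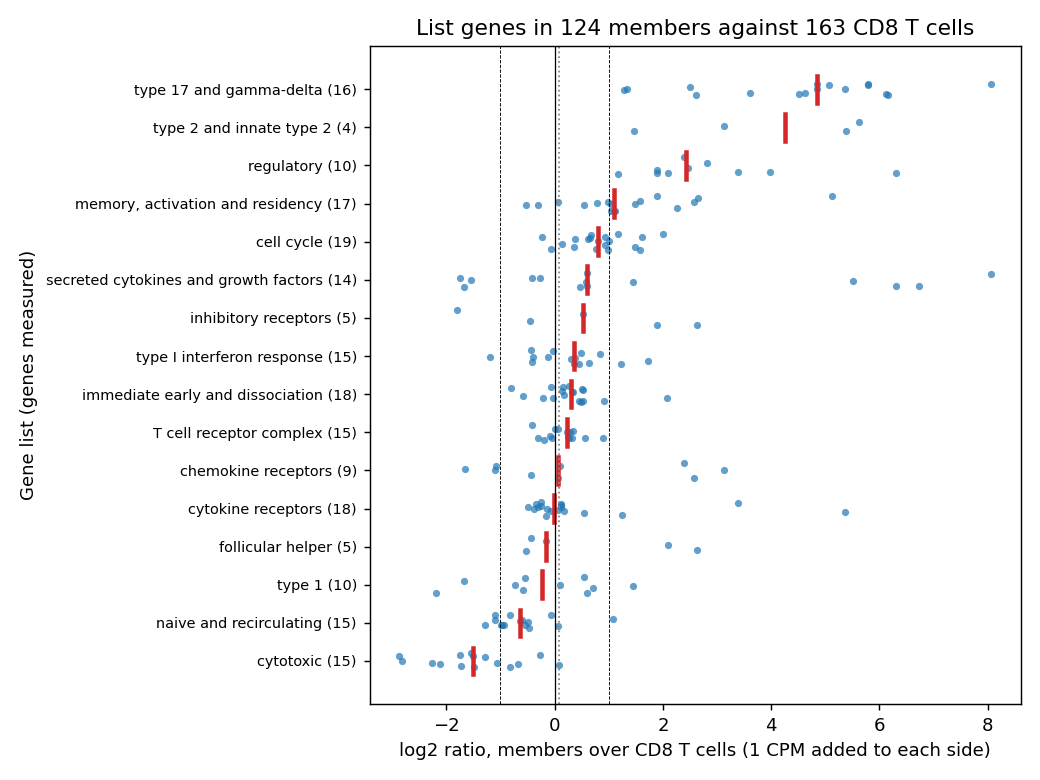
Each point is a measured list gene, placed by the log2 ratio of its CPM in 124 members over 163 CD8 T cells (x axis, 1 CPM added to each side), in rows by list with the number of genes measured. Red bars are list medians, dashed lines mark 2-fold, and the dotted line is the median of all genes (0.07). Type 17 and γδ genes lie to the right of the 2-fold line, and most cytotoxic genes lie to the left. Only 4 of the 16 type 17 and γδ genes had 20 UMIs in CD8 T cells alone. Their place is therefore fixed in part by that minimum. Of the 15 cytotoxic genes, 9 had 20 UMIs in the members alone, 6 of them lower by 2-fold.

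Against NK cells (at least 2 UMIs of the NK receptor genes and 0 of the CD3 genes), the members were higher in T cell receptor genes and lower in killer genes. Both sets were chosen by CD3 and NK receptor UMIs, so these directions follow in part from the choice and are a description. Of 6074 genes measured, 960 were higher (15.8%) and 382 lower (6.29%), and without barcodes rich in other RNA 618 of 5101 (12.1%) and 348 (6.82%). Of 15 receptor complex genes, which do not include the CD3 genes of the choice, 10 were higher and 0 lower over all cells, Trac with 631.5 against 14.09 CPM. Only 11 of the 15 had 20 UMIs in NK cells alone, and 6 of these 11 were higher. Cd5 had 185 UMIs against 0 (at least 26.6-fold higher) and Il7r was 11.4-fold higher (6.74 to 21.1). Of 14 cytotoxic genes, 13 were lower and 0 higher, and of the 9 with 20 UMIs in the members alone, 9 were lower. Gzma was 128-fold lower (97.0 to 171) and Prf1, the pore protein perforin, 54.1-fold lower (29.7 to 110). Of 17 cell cycle genes 13 were higher, but only 2 of the 17 had 20 UMIs in NK cells alone, and 0 of these 2 were higher. That count is therefore fixed in part by the filter, and 11 members held 87.9% of the list's UMIs in members.

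Variable and joining segments of the receptor were caught in few members of this 3′ library, which reads the far end of a transcript. Segments of the Trav family were found in 9 members, of Traj in 10, of Trbv in 9, of Trgv in 14 and of Trdv in 11. The 9 members with a Trav UMI carried 8 different genes and the 9 with a Trbv UMI carried 8, so no Trav or Trbv segment was found in more than 2 members. Of the γδ segments, Trgv2 was found in 9 members, Trgv6 in 3, Trgv5 in 2, and Trdv4 was the only Trdv gene found. In 180 CD8 T cells, 0 had a Trgv or Trdv UMI, but Trdv4 was found in 7 of the 74 NK cells and in 36 barcodes in all outside the members. Traj18 was found in 3 members.

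Nts, the gene deleted in the KO mice, had 31 UMIs in the members, all in 1 barcode of 4175 UMIs that had no receptor constant UMI and held 1.7% fibroblast-list and 1.80% macrophage-list UMIs. The 124 members had 0 Nts UMIs. The neurotensin receptor genes Ntsr1 and Ntsr2 had 0 UMIs in all members, and Sort1, which encodes the sorting receptor sortilin, was found in 4. Genotype was not inferred from these counts.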

How the data were processed

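The deposited matrix holds whole-number UMI counts per gene and barcode of the gene expression library, without normalization by the authors as far as the values show. The submitters' processing notes list STARsolo and Scanpy as tools and mm10 as the genome build. Their versions, settings and the rule that called barcodes as cells are not given in the sources used here. The hashtag library was not analysed here.

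Members and comparison sets were chosen from raw counts. Fibroblasts had at least 2 Pdgfra UMIs without Ptprc or Cdh5, and macrophages at least 2 Csf1r UMIs without Pdgfra, CD3 genes or Cdh5. UMIs were summed per set and given as CPM with exact Poisson intervals. Ratios have exact conditional binomial intervals and shares Clopper-Pearson intervals, all at 95%. A gene was measured with at least 20 UMIs over both sides and called at 2-fold. A side at 0 was set at a floor of 3 counts over the set. List medians add 1 CPM to each side. Thinning drew 1500 UMIs per barcode at random with a fixed seed. Scrublet, as built into scanpy, marked 357 barcodes (3.81%) as doublets, which were kept in the main values. Tools were Python 3.11.15, numpy 2.4.6, scipy 1.17.1, pandas 2.3.3, scanpy 1.11.5, anndata 0.12.19, scikit-learn 1.9.0 and matplotlib 3.10.9. The ratio script was tested on simulated data.

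The 17 functional and 13 cell type lists and the members were chosen with earlier results of these data known. Named genes were the markers, Foxp3, Ctla4, Il2ra, Trdc, Il17a, Mki67 and Nts, up to 3 called genes per list and side, the 3 most abundant genes per list, and, higher or lower, the 15 genes of largest ratio (10 CPM added to each side). Genes of the type 2 set, of the Scart1 split and of the co-detection counts were named after their values were seen. Promoters came from a RefSeq table of build GRCm38.p6.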

Additional observations from a re-analysis of the deposited data

How the results depend on the processing

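Cells were not assigned to mice here, so no value has a replicate error. No paired analysis was made, because the mice share 1 pooled library and the hashtag library that tags them was not analysed here. Of 84 alternative values of 16 leading results, 60 stayed within 1.5 times or within their interval, and 24 moved. Thinning to 1500 UMIs gave Foxp3 0.690%, Cd4 6.21%, none of the 3 genes 79.3% and cycling members 10.3%, with 351 genes higher and 183 lower against CD8 T cells and 371 and 225 against NK cells. Asking for 2 UMIs of Foxp3, Trdc or Cd4 gave Cd4 8.97% and none 73.1%, and asking for 3 cell cycle genes gave 11.0% cycling. A CD3 sum of at least 1 (199 members) gave none 70.4%, 1547 genes higher and 500 lower against CD8 T cells, 1617 higher against NK cells, and 5 lists with more genes lower. A minimum of 50 UMIs gave 349 and 111 genes against CD8 T cells and a minimum of 10 gave 1428 and 541.

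Leaving out barcodes rich in RNA of another lineage, an alternative chosen after seeing the data, gave 465 genes higher against CD8 T cells, 618 higher against NK cells, 394 higher in Foxp3 members and 467 lower in Trdc members. Of 341 alternative values of 38 named gene ratios against CD8 T cells, 294 stayed within the main interval, 46 moved and 1 reversed. Only the 32 ratios past 2-fold in the main values could be called reversed. The 1 that did, Egr1, had a log2 ratio of -0.81 without those barcodes. The cause was not tested. Of 134 alternative list medians, 127 stayed within 2-fold of the main value and 7 moved. Only the 5 of 17 lists with a main median of at least 2-fold could be called reversed, and 0 were. Smaller medians could change sign. Without barcodes rich in other RNA, the median log2 ratio of inhibitory receptors went from -0.31 to 0.52 and that of chemokine receptors from -0.19 to 0.07. Depth limits genes with few UMIs a cell: thinning left Foxp3 in 1 of 9 members, Mki67 in 3 of 10, Cd4 in 10 of 34 and Il2ra in 9 of 26.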
